A study of Mus musculus with 6 samples.

Results

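Several of the enzymes that break down tryptophan, phenylalanine and tyrosine, and the methyl group of methionine, have abundant transcripts in the liver. Genes of these pathways were followed here in livers of Cgref1 knockout and wild type mice. The 9 genes were chosen by name as steps of these pathways: Tdo2, Kmo and Kynu for tryptophan, Tat, Hpd, Hgd and Fah for tyrosine, and Gnmt and Bhmt for methionine. All 9 were found among the 15953 genes of the deposited table, and all 9 passed the filter on low counts that kept 12033 genes. The study measured messenger RNA by RNA sequencing in 3 liver samples labelled Cgref1 KO and 3 labelled wild type, all from C57BL/6 mice. The labels used here are silent on age, sex, diet, time of sampling and the design of the deleted allele. The comparison addressed how hepatic gene expression differs without Cgref1. The labels call the samples biological replicates without saying how they were taken, and p-values here reflect nothing beyond the spread among the 6 samples.

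In the liver, tryptophan is opened by tryptophan 2,3-dioxygenase (Tdo2) and passed down the kynurenine pathway, which ends in NAD or in full oxidation. Tyrosine loses its amino group through tyrosine aminotransferase (Tat) and is taken down to fumarate and acetoacetate. Methionine is turned into the methyl donor S-adenosylmethionine; glycine N-methyltransferase (Gnmt) uses up its methyl group, and betaine-homocysteine methyltransferase (Bhmt) rebuilds methionine from homocysteine. Tat and Tdo2 are classical targets of glucocorticoid hormones in liver, and loss of Tat, Hpd, Hgd or Fah causes inherited disorders of tyrosine breakdown in humans.

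Libraries held 17627734 to 18366443 estimated counts. Cgref1 itself, which encodes a secreted EF-hand protein, had 7, 12 and 10 counts in the knockout-labelled libraries and 7, 7 and 19 counts in the wild type libraries. With the gene kept in the fit, its log2 fold change was -0.11 (95% confidence interval -1.23 to 1.01), and the libraries are therefore called knockout-labelled, after their labels. The labels name hepatocytes as the cell type. Of 15 hepatocyte markers 14 were in the table, with summed counts of 1750190 to 2104334 in knockout-labelled and 1788266 to 2295568 in wild type libraries. All 14 Kupffer cell, 15 stellate cell and 15 sinusoidal endothelial markers were also counted in each library. Of 20 intestinal markers, 14 to 16 were at 0 in knockout-labelled libraries, against 3, 9 and 3 in wild type replicates 1, 2 and 3. In bulk tissue, fewer cells of a type and less RNA per cell cannot be told apart.

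None of the 9 genes differed between the groups past the threshold. With p-values of edgeR's quasi-likelihood test, adjusted over all genes by the Benjamini-Hochberg procedure, 0 of the 9 members were called, against 0.00831% of all genes tested (1 gene). At an unadjusted p under 0.05 the count was 0 of 9, against 5.15% of all genes. DESeq2 and limma-voom also called 0 of the 9, with DESeq2 calling 0.233% of all genes. The groups overlapped for each of the 9 genes, whereas they did not overlap in 10.8% of all genes. Positive log2 fold changes were found for 6 members and negative ones for 3, against 49.5% positive over all genes; Tdo2, Kmo, Hpd and Fah turned negative when TPM were compared in place of counts. The median over the 9 members was 0.02, and over all genes it was -0.00. The authors' deposited table gave the 9 genes a DESeq2 q-value of 0.999 each.

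The replicates limited the size of difference that could be seen. For 6 genes, Tdo2, Kmo, Hpd, Hgd, Fah and Gnmt, the 95% confidence interval of the fold change lay within 1.5-fold in either direction. For Kynu, Bhmt and Tat it was wider, and for Tat it ran from 0.484-fold to 3.23-fold. Members had 2199 to 47942 counts per library, for which counting error alone is 2.13% to 0.457%, so the spread between samples and not the depth set these intervals.

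**Figure D1:**
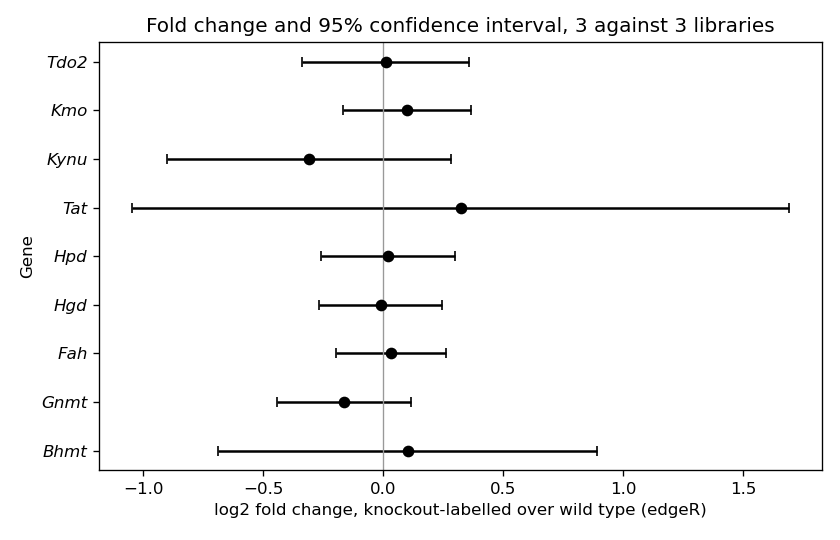
The log2 fold change (knockout-labelled over wild type, horizontal axis) of each of the 9 genes is shown as a point with its 95% confidence interval from edgeR, 3 against 3 libraries. Every interval crosses 0, and the interval of Tat, from -1.05 to 1.69, is the widest.

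Levels were compared between genes in TPM, a share of all transcripts that takes transcript length into account. Gnmt was the highest, at 2378 ± 351 TPM in knockout-labelled and 2914 ± 274 TPM in wild type livers (SD, n = 3 each). Hpd followed at 1974 ± 350 and 2129 ± 90.6 TPM, Tdo2 at 1369 ± 219 and 1488 ± 262 TPM, and Bhmt at 1215 ± 51.5 and 1236 ± 594 TPM, each in knockout-labelled and wild type livers (SD, n = 3 each). Next in order were Tat at 670.1 ± 276 and 590.6 ± 372 TPM, Fah at 603.2 ± 46.1 and 646.5 ± 42.1 TPM, and Hgd at 476.4 ± 63.1 and 525.4 ± 44.8 TPM in the same groups. Kmo, at 210.4 ± 9.43 TPM in knockout-labelled and 215.5 ± 23.5 TPM in wild type livers, and Kynu, at 85.5 ± 13.2 and 115.8 ± 41.9 TPM, were the lowest. From Gnmt down to Hgd, each gene overlapped its neighbour in this order over the 6 libraries, whereas Hgd, Kmo and Kynu did not overlap each other. The 9 genes together took 1.00%, 0.797% and 0.896% of all TPM in knockout-labelled replicates 1, 2 and 3, and 1.12%, 0.88% and 0.956% in wild type replicates 1, 2 and 3.

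**Figure D2:**
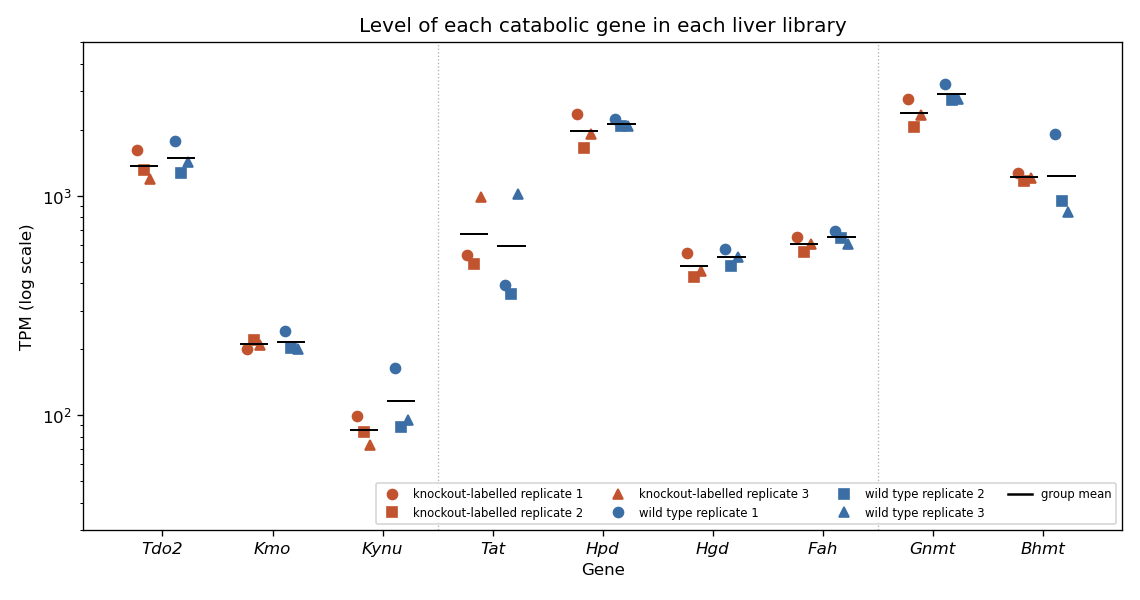
TPM on a log axis for each gene in the 6 libraries, knockout-labelled (left, orange) and wild type (right, blue); symbols mark the replicate number and black lines the group means. Levels span from 73.4 TPM (Kynu in knockout-labelled replicate 3) to 3230 TPM (Gnmt in wild type replicate 1), and for Tat the triangles, replicate 3, stand above both other libraries in each group.

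Within the kynurenine pathway, Tdo2 (chromosome 3, 81958412 to 81975728, GRCm38), the haem enzyme of the first step, had 1772, 1559 and 1360 CPM (counts scaled to library size, not to gene length) in knockout-labelled replicates 1, 2 and 3. It had 1886, 1309 and 1463 CPM in wild type replicates 1, 2 and 3. Replicate 1 was the highest of each group and the groups covered nearly the same range, with a log2 fold change of 0.01 (SE 0.16, edgeR adjusted p 0.996). Kmo (chromosome 1, 175632193 to 175660853), which hydroxylates kynurenine at the outer mitochondrial membrane, had 351.0, 416.4 and 381.1 CPM in knockout-labelled and 409.7, 333.0 and 328.0 CPM in wild type libraries. The highest and lowest Kmo values in CPM thus came from different groups, but wild type replicate 1 lay among the knockout-labelled values. In TPM both came from the wild type group, 242.6 in replicate 1 and 200.9 in replicate 3. The log2 fold change of Kmo was 0.10 (SE 0.12, edgeR adjusted p 0.988).

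Kynu (chromosome 2, 43555257 to 43683048) encodes kynureninase, which cleaves 3-hydroxykynurenine to 3-hydroxyanthranilate and alanine. It had 155.1, 142.1 and 121.1 CPM in knockout-labelled and 246.1, 132.1 and 139.3 CPM in wild type libraries. Wild type replicate 1 stood above all others, and the remaining wild type values lay inside the knockout-labelled range. The log2 fold change was -0.31 (SE 0.25, edgeR adjusted p 0.988), and without wild type replicate 1 it was 0.03. The summed counts of the intestinal marker list were 1361, 1508 and 1268 in knockout-labelled and 2446, 1520 and 2578 in wild type libraries, most of them from Fabp2, a fatty acid binding protein gene. Without Fabp2 the other 19 markers summed to 102, 108 and 170 counts in knockout-labelled and 242, 142 and 463 counts in wild type libraries; their part in the Kynu value was not tested. The level of Tdo2 over that of Kynu, in TPM, was 16.2, 15.7 and 16.2 in knockout-labelled and 10.8, 14.4 and 14.9 in wild type libraries.

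Of the tyrosine genes, Tat varied most between libraries. Tat lies on chromosome 8 (109990436 to 109999804), and its RefSeq promoter (GRCm38.p6, chr8:109990186-109990485, plus strand, 250 bases before to 50 after the start) is shown because its transcript differed most between samples of the same group. Capitals mark each CCAAT motif, which reads ATTGG where it lies on the opposite strand.
Tat promoter: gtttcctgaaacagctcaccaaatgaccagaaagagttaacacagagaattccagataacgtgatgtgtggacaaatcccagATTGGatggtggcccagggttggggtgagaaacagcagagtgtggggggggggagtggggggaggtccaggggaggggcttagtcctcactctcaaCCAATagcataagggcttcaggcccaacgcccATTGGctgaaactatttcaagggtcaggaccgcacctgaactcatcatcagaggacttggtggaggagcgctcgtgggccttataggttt

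Tat had 885.2, 872.8 and 1702 CPM in knockout-labelled replicates 1, 2 and 3, and 630.8, 557.3 and 1578 CPM in wild type replicates 1, 2 and 3. Replicate 3 was the highest library in both groups, and the other libraries of the knockout-labelled group lay above those of the wild type group. The log2 fold change over all libraries was 0.32 (SE 0.53, 95% confidence interval -1.05 to 1.69, edgeR adjusted p 0.99). Without knockout-labelled replicate 3 it was -0.07, and without wild type replicate 3 it was 0.96. With replicate 3 of both groups left out together, a setting chosen after seeing the data, it was 0.56 with an edgeR adjusted p of 0.999. The spread of Tat within groups, 0.698 on the log2 scale, was exceeded by 1.66% of the 1262 genes with a mean of at least 100 CPM.

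The later enzymes of tyrosine breakdown were steadier. Hpd (chromosome 5, 123171807 to 123182686), whose dioxygenase forms homogentisate, had 2103, 1608 and 1789 CPM in knockout-labelled and 1930, 1752 and 1740 CPM in wild type libraries. The wild type values lay wholly inside the knockout-labelled range (log2 fold change 0.02, SE 0.12, edgeR adjusted p 0.994). Its relative Hpdl, below the filter, had 2, 3 and 5 counts in knockout-labelled and 2, 3 and 7 counts in wild type libraries. Hgd (chromosome 16, 37579791 to 37632026), which opens the ring of homogentisate, had 631.5, 534.3 and 546.1 CPM in knockout-labelled and 634.8, 520.7 and 569.2 CPM in wild type libraries. Replicate 1 was again the highest library of each group, and the log2 fold change was -0.01 (SE 0.11). Fah (chromosome 7, 84585159 to 84619852), the fumarylacetoacetase of the last step, had 687.6, 639.6 and 670.3 CPM in knockout-labelled and 707.6, 643.1 and 602.3 CPM in wild type libraries. Its log2 fold change was 0.03 (SE 0.10), and its highest library was 1.18 times its lowest in CPM, the narrowest range of the 9 genes on that scale. The level of Hpd over that of Tat, in TPM, was 4.39, 3.4 and 1.94 in knockout-labelled and 5.67, 5.8 and 2.04 in wild type libraries.

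Gnmt (chromosome 17, 46725664 to 46729189) had 1779, 1440 and 1571 CPM in knockout-labelled and 2011, 1675 and 1676 CPM in wild type libraries. Knockout-labelled replicates 2 and 3 stood below all wild type libraries and replicate 1 among them, and the log2 fold change of -0.16 (SE 0.12, 95% confidence interval -0.44 to 0.12) did not pass, with an edgeR adjusted p of 0.984. Its unadjusted p of 0.223 was the smallest of the 9 genes. Gnmt was the only one of the 9 whose fitted value kept its sign under all 20 alternative settings, between -0.30 and -0.08.

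Bhmt is located on chromosome 13 (93598447 to 93637758) next to its paralog Bhmt2 (93656097 to 93674302). Its promoter (GRCm38.p6, chr13:93637709-93638008, minus strand) is shown as that of the gene with the most unequal spread between the groups. The Fah promoter (chr7:84605893-84606192, minus strand) is shown as that of the gene with the narrowest range in CPM. Capitals mark CCAAT motifs on either strand, of which the Fah window held none.
Bhmt promoter: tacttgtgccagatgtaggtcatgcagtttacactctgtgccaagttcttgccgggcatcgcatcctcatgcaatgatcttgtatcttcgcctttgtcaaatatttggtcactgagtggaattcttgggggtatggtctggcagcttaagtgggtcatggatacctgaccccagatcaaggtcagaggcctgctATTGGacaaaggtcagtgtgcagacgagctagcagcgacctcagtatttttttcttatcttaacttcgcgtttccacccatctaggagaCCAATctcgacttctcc
Fah promoter: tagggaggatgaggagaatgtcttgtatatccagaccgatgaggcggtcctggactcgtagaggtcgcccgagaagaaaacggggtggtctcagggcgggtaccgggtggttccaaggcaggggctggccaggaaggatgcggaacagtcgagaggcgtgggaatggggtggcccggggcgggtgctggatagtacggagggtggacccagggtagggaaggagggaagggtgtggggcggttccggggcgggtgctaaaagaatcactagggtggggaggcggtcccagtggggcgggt

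Bhmt had 1812, 1809 and 1786 CPM in knockout-labelled and 2646, 1263 and 1129 CPM in wild type libraries. The coefficient of variation was 0.798% in knockout-labelled libraries (1802 ± 14.4 CPM, SD, n = 3) and 49.99% in wild type libraries (1680 ± 840 CPM, SD, n = 3). The close agreement of the knockout-labelled libraries depended on the scale. In TPM they had 1272, 1171 and 1203 (1215 ± 51.5, SD, n = 3), against 1236 ± 594 TPM (SD, n = 3) in wild type libraries. The knockout-labelled values all lay between the high wild type replicate 1 and the low wild type replicates 2 and 3. The log2 fold change was 0.10 (SE 0.33, edgeR adjusted p 0.994). Without wild type replicate 1 it was 0.58 and the groups no longer overlapped, with an edgeR adjusted p of 0.615; without wild type replicate 2 it was -0.06 and without wild type replicate 3 it was -0.11. Bhmt2, which uses S-methylmethionine as methyl donor, had 179.4, 167.1 and 175.4 CPM in knockout-labelled and 191.6, 163.3 and 180.3 CPM in wild type libraries. Bhmt over Bhmt2, in TPM, was thus 10.2, 10.9 and 10.3 in knockout-labelled libraries and 13.9, 7.82 and 6.33 in wild type libraries.

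**Figure D3:**
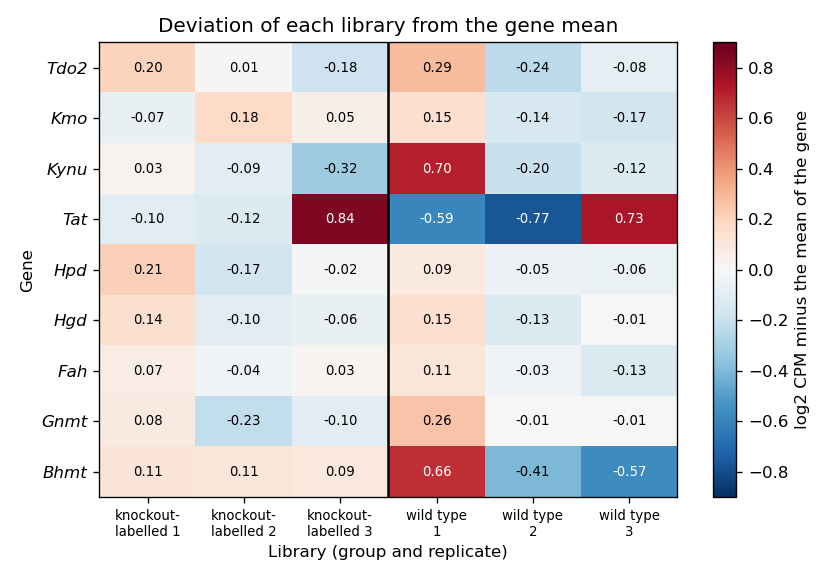
Deviation of log2 CPM from the mean of each gene (rows) in each library (columns), knockout-labelled on the left and wild type on the right; red is above and blue below the gene's mean. Tat stands out in replicate 3 of both groups (0.84 and 0.73), and Kynu and Bhmt in wild type replicate 1 (0.70 and 0.66).

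Across replicate numbers, most of the 9 genes had their highest library at the same number in both groups. In 7 of them, Tdo2, Kynu, Hpd, Hgd, Fah, Gnmt and Bhmt, replicate 1 had the highest CPM in both groups, which was the case for 18.3% of all genes tested. In Tat it was replicate 3, as in 16.3% of all genes, and in Kmo the highest libraries of the groups had different numbers. For Bhmt the order in the knockout-labelled group rested on a small margin, with 1812, 1809 and 1786 CPM in replicates 1, 2 and 3. Wild type replicate 1 was the highest of all 6 libraries for 6 genes. The labels give the numbers no meaning beyond the replicate. Summed over the 9 genes, the level was 10180, 9021 and 9927 CPM in knockout-labelled and 11100, 8185 and 9226 CPM in wild type replicates 1, 2 and 3. The hepatocyte marker counts of replicate 1 were the highest of each group too, at 2104334 in the knockout-labelled and 2295568 in the wild type library, and their part in the pattern was not tested.

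Beside Tat, a list of 20 genes that respond to glucocorticoids or glucagon was examined. In 10 of them replicate 3 was the highest library of both groups, against 16.3% of all genes tested. The list was chosen with earlier results of these data known. Some margins were small, as for Fkbp5 with 48.4 and 49.6 CPM in knockout-labelled replicates 2 and 3. Replicate 1 was the highest of both groups in 3 of the 20, and replicate 2 in 2. In the rest the highest libraries of the groups had different numbers. Tsc22d3, a glucocorticoid-induced leucine zipper gene, had 56.5, 66.0 and 120.4 CPM in knockout-labelled and 29.4, 39.7 and 154.4 CPM in wild type replicates 1, 2 and 3. The catalytic subunit gene of glucose-6-phosphatase, G6pc, had 83.1, 191.3 and 297.4 CPM in knockout-labelled and 75.3, 54.7 and 448.9 CPM in wild type libraries. The phosphatase gene Dusp1 had 9.68, 12.7 and 38.9 CPM in knockout-labelled and 9.27, 14.4 and 29.4 CPM in wild type libraries. Tsc22d3, G6pc and Dusp1, which were picked after their values were seen, had their highest value in replicate 3 of each group, as Tat did. Tdo2, the other classical glucocorticoid target among the 9 genes, did not share this and had 0.817 and 0.916 times the mean of the other libraries in replicate 3 of the knockout-labelled and wild type groups, against 1.94 and 2.66 times for Tat. Klf9, a transcription factor gene, was lowest in replicate 3 of both groups.

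**Figure D4:**
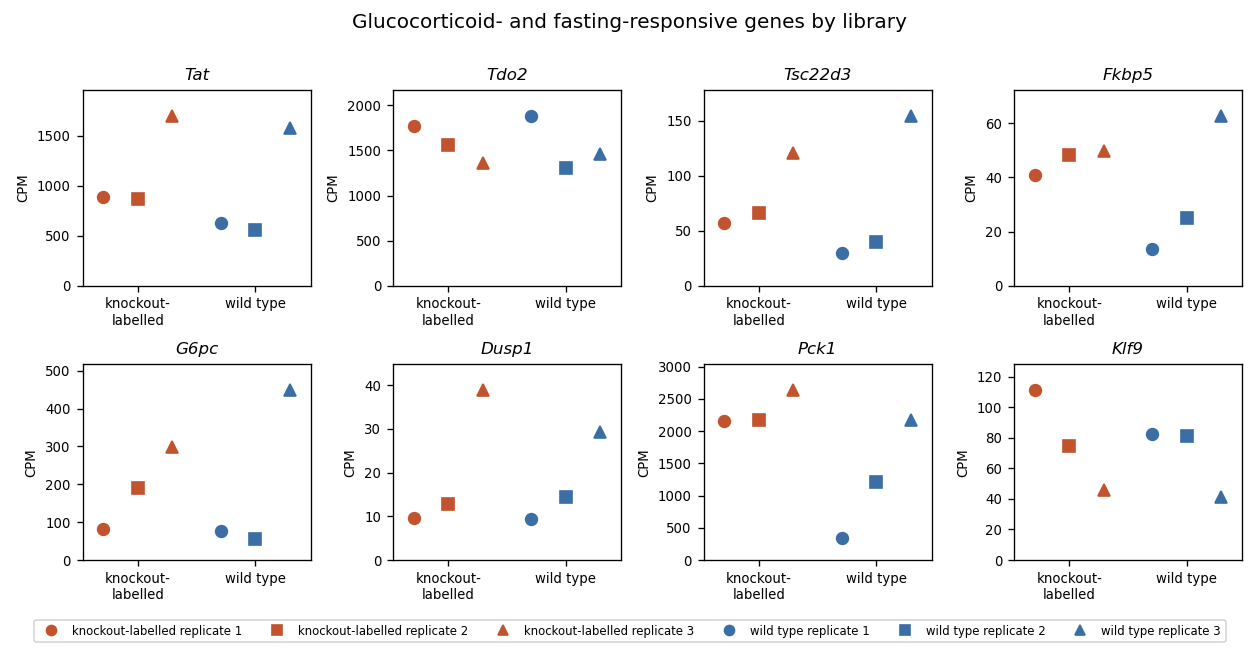
CPM of Tat, Tdo2 and 6 genes of the glucocorticoid and glucagon list in each library, knockout-labelled (left, orange) and wild type (right, blue), with symbols for the replicate number and axes that start at 0. Replicate 3, the triangle, is highest in both groups for Tat, Tsc22d3, Fkbp5, G6pc, Dusp1 and Pck1, and lowest in both for Klf9. The 6 genes from the list were picked after their values were seen.

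Between the genotypes, the log2 fold change was above 0 for 18 of the 20 genes of this list and below 0 for 2, and its median was 0.26 against -0.00 over all genes. Kupffer cell markers were also positive, 14 of 14, where 49.5% of all genes were, with a median of 0.32. At an unadjusted edgeR p under 0.05, 8 of the 14 were higher, against 2.95% of all genes. Stellate cell markers went the other way, with 2 positive, 13 negative and a median of -0.27. The part of either cell type in the values of the list was not tested. Wild type replicate 1 had the lowest value of the 6 libraries in most of the 20 genes, though not in G6pc or Klf9. Pck1 had 336.8 CPM in that library, against 1216 and 2176 CPM in wild type replicates 2 and 3. Fkbp5 had 13.5 CPM there, against 25.1 and 62.9 CPM. How far the positive values of the list rest on this library was not tested. In edgeR 0 of the 20 passed the adjusted threshold and 2 were higher at an unadjusted p under 0.05, where 2.95% of all genes were; DESeq2 and limma-voom called 0. The 2 genes were Lcn2, an iron-scavenging protein gene, with 5.6, 5.29 and 8.48 CPM in knockout-labelled and 1.99, 2.98 and 3.87 CPM in wild type libraries, and Creb3l3. For Lcn2 the log2 fold change was 1.13 (SE 0.28, edgeR adjusted p 0.739). Creb3l3, a fasting-responsive transcription factor gene of the endoplasmic reticulum, had 309.1, 313.2 and 302.6 CPM in knockout-labelled and 225.2, 272.4 and 244.7 CPM in wild type libraries (log2 fold change 0.32, SE 0.10, edgeR adjusted p 0.856).

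The pathways around the 9 genes were taken from 5 wider lists. Without the 9 genes they held 115 tested genes, of which edgeR called 0, as did DESeq2 and limma-voom. At an unadjusted p under 0.05, 7 were higher and 1 was lower, against 2.95% and 2.2% of all genes. Positive values were found for 57 and negative values for 58, with a median of -0.00. Ido1, the dioxygenase that opens tryptophan outside the liver, had 0 counts in each knockout-labelled library and 1, 0 and 1 in wild type libraries, where Tdo2 had 24629 to 34167 counts.

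The tryptophan list beyond Tdo2, Kmo and Kynu had 16 tested genes, 6 positive and 10 negative, with a median of -0.02. Aadat, an aminotransferase that turns kynurenine into kynurenic acid, had 129.0, 180.9 and 158.5 CPM in knockout-labelled and 134.9, 110.2 and 95.3 CPM in wild type libraries. The values overlapped through knockout-labelled replicate 1, and the log2 fold change was 0.46 (SE 0.16, unadjusted p 0.0162, edgeR adjusted p 0.903). Haao, the dioxygenase after Kynu, had 581.7, 459.1 and 458.1 CPM in knockout-labelled and 732.2, 531.0 and 570.9 CPM in wild type libraries (log2 fold change -0.29, SE 0.15). Without wild type replicate 1 its log2 fold change was -0.15.

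In the phenylalanine and tyrosine list, 12 further genes were tested, 4 positive and 8 negative, with a median of -0.07. Qdpr, which regenerates the cofactor tetrahydrobiopterin, had 429.3, 345.0 and 352.0 CPM in knockout-labelled and 500.8, 430.9 and 407.9 CPM in wild type libraries (log2 fold change -0.25, SE 0.12, edgeR adjusted p 0.973). Knockout-labelled replicate 1 lay among the wild type values and the other knockout-labelled libraries below them.

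The methionine list added 31 tested genes, 15 positive and 16 negative, with a median of -0.01. Its gene with the smallest p was Ahcyl2, a relative of S-adenosylhomocysteine hydrolase, at 15.6, 20.7 and 30.6 CPM in knockout-labelled and 16.0, 15.1 and 15.2 CPM in wild type libraries (log2 fold change 0.53, SE 0.22). It rested mostly on knockout-labelled replicate 3, without which the log2 fold change was 0.24. Sqor, which oxidises hydrogen sulphide in mitochondria, had 180.0, 144.2 and 138.8 CPM in knockout-labelled and 206.1, 172.6 and 174.1 CPM in wild type libraries (log2 fold change -0.26, SE 0.13).

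Among 41 tested genes for the breakdown of other amino acids, Oat and Aspg had an unadjusted p under 0.05, 2 of 41 where all genes had 5.15%, and the groups did not overlap in 5 of 41, where all genes had 10.8%. Both counts were thus near the share of all genes, and edgeR called 0 of the 41. Oat, the ornithine aminotransferase gene, had 906.5, 817.8 and 922.7 CPM in knockout-labelled and 809.8, 532.2 and 654.3 CPM in wild type libraries (log2 fold change 0.41, SE 0.15, edgeR adjusted p 0.918). Aspg, an asparaginase gene, had 123.4, 92.7 and 109.6 CPM in knockout-labelled and 147.3, 166.1 and 127.0 CPM in wild type libraries (log2 fold change -0.44, SE 0.13, edgeR adjusted p 0.85). In both genes the groups did not overlap.

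Of the 5 amino acid lists, the transporters had the highest median, 0.24 over 15 tested genes, 12 positive and 3 negative. Separate groups were seen for 8 of the 15, against 10.8% of all genes. At an unadjusted edgeR p under 0.05, 3 of the 15 were higher, against 2.95% of all genes. After adjustment edgeR, DESeq2 and limma-voom each called 0. Slc16a10, a carrier of aromatic amino acids, had 102.6, 111.1 and 105.7 CPM in knockout-labelled and 71.8, 91.1 and 88.1 CPM in wild type libraries (log2 fold change 0.35, SE 0.11, edgeR adjusted p 0.85). Slc7a5 and Slc3a2 encode the light and heavy chain of a carrier of large neutral amino acids, phenylalanine, tyrosine and tryptophan among them. Slc7a5 had 3.5, 3.43 and 4.63 CPM in knockout-labelled and 2.04, 2.39 and 1.8 CPM in wild type libraries (log2 fold change 0.89, SE 0.23, edgeR adjusted p 0.754). Its mean in each group lay below 5 CPM, the minimum of an alternative filter, which it did not pass. Slc3a2 had 33.9, 31.1 and 28.2 CPM in knockout-labelled and 22.5, 26.0 and 27.4 CPM in wild type libraries (log2 fold change 0.30, SE 0.12, edgeR adjusted p 0.928). Every knockout-labelled library lay above every wild type library for Slc16a10, Slc7a5 and Slc3a2. Summed counts of Kupffer cell markers were 7111 to 7722 in knockout-labelled and 5964 to 6712 in wild type libraries, and those of stellate cell markers 6595 to 8198 and 8094 to 10676 in the same groups; their part in these values was not tested.

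**Figure D5:**
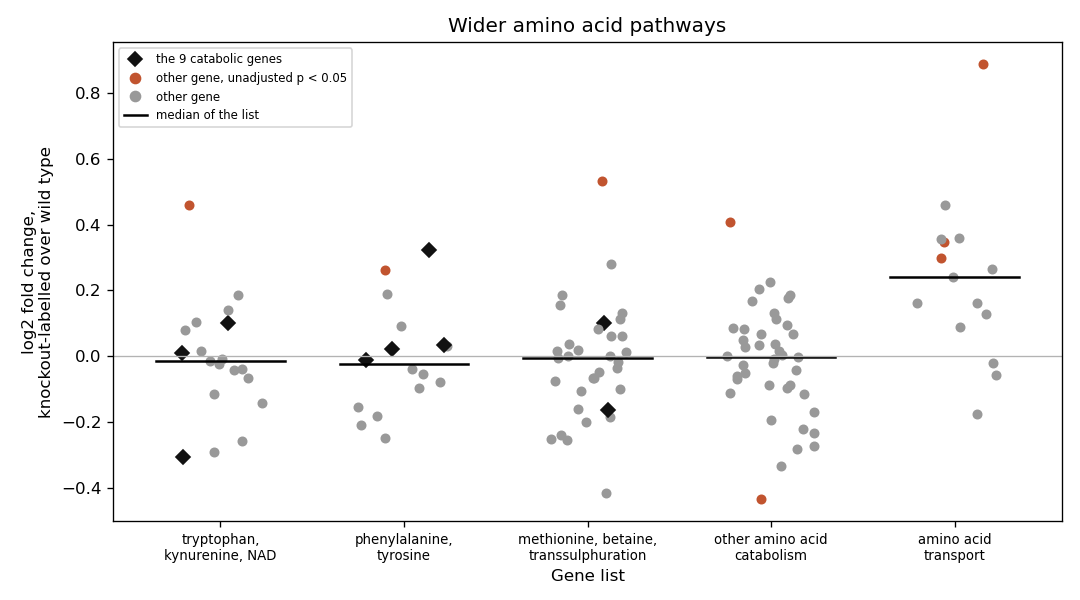
The log2 fold change (knockout-labelled over wild type, vertical axis) of each tested gene in 5 lists of amino acid genes; black diamonds are the 9 catabolic genes, orange points other genes with an unadjusted p under 0.05, and bars list medians with the 9 genes included. The medians of the 4 catabolic lists lie between -0.02 and -0.00, and that of the transporters is 0.24.

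For each of the 9 genes, the gene of the wider lists with the most similar course over the 6 libraries was sought among 110 candidates, as the smallest root mean square difference of centred log2 CPM. For Fah this was Qprt (difference 0.0296, against a spread of Fah itself of 0.0762), for Hpd it was Agxt (0.0421, against 0.123) and for Hgd it was Got2 (0.0444, against 0.112). For Gnmt it was Aldh8a1 (0.0541, against 0.149), for Tdo2 Dmgdh (0.0589, against 0.191), for Kmo Ahcyl1 (0.0953, against 0.136) and for Kynu Cth (0.117, against 0.331). Cth, the cystathionine gamma-lyase gene, had 471.3, 387.0 and 323.8 CPM in knockout-labelled and 589.8, 316.8 and 360.4 CPM in wild type libraries, with wild type replicate 1 highest, as for Kynu. For Tat it was Nnmt (0.339, against 0.607) and for Bhmt Agxt2 (0.234, against 0.4). Set against the gene's own spread, the differences for Kmo, Tat and Bhmt were the largest of the 9.

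The 9 genes lie on 9 chromosomes. In the deposited table Tdo2, Gnmt and Bhmt stand on the plus strand, whereas GENCODE places all of them on the minus strand. The entries for these genes include transcripts from outside RefSeq, and so do those for Hgd and Fah, whose strands match GENCODE. For Bhmt the entry begins at 93598447 and the RefSeq gene at 93616891. For Fah, on the minus strand, the entry ends at 84619852 and the RefSeq gene at 84605942. For Tat, on the plus strand, the entry begins at 109990436 and the RefSeq gene at 109986078. The Tat promoter printed above surrounds the start of the entry and not that of the RefSeq gene. GENCODE has an antisense gene over Bhmt (Gm15622) and over Hgd (Gm46559), and a lincRNA gene on the opposite strand over Gnmt (Gm26904); the protein-coding genes Fh1 and Psmd9 overlap Kmo and Hpd on the opposite strand. A further lincRNA gene, Gm26745, overlaps Hpd on the same strand. No source used here states whether strand entered the counting. Overlap was taken over whole gene spans and not over exons. How far reads of these genes and of their overlapping partners were mixed was not tested.

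RefSeq promoters were found for 8 of the 9 genes, all but Kynu. Searched on both strands, CCAAT stood in 5 of the 8 (Tdo2, Tat, Hgd, Gnmt and Bhmt), against 37.9% of 27025 promoters of the same length. The motif TATAAA stood in 2 (Tdo2 and Hgd), against 14.2%. For the glucocorticoid receptor, the palindrome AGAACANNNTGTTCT stood in 0 of the 8, against 0.0037% of promoters, and TGTTCT, which is also its right arm, stood in 1 (Kmo), against 19%. The motifs TTGCNNGCAA, CAAAGTCCA, GTTAATNATTAAC and TGACGTCA stood in 0 of the 8, against 0.359%, 0.477%, 0.0074% and 1.88% of promoters. Such matches describe the letters of these windows only.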

How the data were processed

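Messenger RNA was measured in 3 knockout-labelled and 3 wild type mouse livers. The submitters' processing notes name HISAT, Bowtie2, RSEM and DESeq2 without versions; neither the strand setting nor the build is stated there. Chromosome names in the deposited table and the starts or ends of all 9 genes match GRCm38. The deposited expected counts of each gene in each library are not normalized, and 92.3% to 92.9% of the values had no decimal part. The authors also deposited FPKM and TPM per library, and a log2 fold change with p-value and q-value, per the file headers. The 15 columns of group means and of single-library comparisons were not used.

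Expected counts were rounded to whole numbers and filtered by filterByExpr (minimum count 10), which left 12033 of 15953 genes. TMM factors were 0.955 to 1.05. Groups were compared without a block by the robust quasi-likelihood test of edgeR 4.0.16 (R 4.3.3), with Benjamini-Hochberg adjustment over all genes, calling genes at 0.05. The biological coefficient of variation was 15.8%. CPM use TMM-scaled library sizes, and errors are SD or SE. The alternatives used other scalings and filters, DESeq2 1.42.0, limma 3.58.1 (voom, or trend on log2 of TPM or FPKM with 1 or 0.1 added), removal of haemoglobin and Mup genes, libraries left out, and a block for the replicate number. The steps were tested on simulated data.

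The 9 genes, the lists and the rule for named genes were chosen with earlier results of these data known. Named are the 9 genes, in each wider list the genes with an unadjusted p under 0.05 or at least 2 with the smallest p, the most similar gene to each of the 9, Bhmt2, Hpdl and Cgref1; Tsc22d3, G6pc, Dusp1, Klf9, Fkbp5, Pck1 and Ido1 were chosen after their values were seen. A gene that the rule names is not reported here. Promoters are those of RefSeq on GRCm38.p6.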

Additional observations from a re-analysis of the deposited data

How the results depend on the processing

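Under all 20 alternatives 0 of the 9 genes and 0 of the wider pathway genes were called; 1 of the 20, without wild type replicates 1 and 3, has a single wild type library, whose spread is assumed to be that of the knockout-labelled group, and says little on stability. The median of the 9 genes lay between -0.12 and 0.12, with the lowest value from limma-trend on TPM, a scaling that also moved the median of all genes to -0.11 (pseudocount 1) or -0.13 (pseudocount 0.1). Over all genes, edgeR called 1 gene, DESeq2 28, the replicate block 34, the filter of at least 5 CPM 0, and the fit without wild type replicates 1 and 3 together 0; leaving out 1 library gave 1 to 5, with 5 without knockout-labelled replicate 1. Same-numbered libraries of the 2 groups had deviations that correlated across genes at 0.274, 0.0571 and 0.337 for numbers 1, 2 and 3, so not every pair passed 0.1 and the numbers were not taken as pairs, although every library correlated best with its own number, a hint from the data and not the design. In the replicate block fit Tat had 0.41 (adjusted p 0.252) and Lcn2 1.14 with an adjusted p of 0.0492, so that 1 of the 20 glucocorticoid and glucagon genes passed the threshold there, against 0 without the block (adjusted p 0.739).

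Several signs turned, those of Kynu and Tat included. With library totals only, the log2 fold changes were -0.068 (Tdo2), -0.059 (Hpd), -0.047 (Fah) and -0.043 (Agxt). With limma-trend on log2(TPM + 1), the log2 fold changes were -0.12 (Tdo2), -0.030 (Kmo), -0.12 (Hpd), -0.10 (Fah), -0.042 (Dmgdh) and -0.10 (Agxt). With limma-trend on log2(TPM + 0.1), the log2 fold changes were -0.12 (Tdo2), -0.030 (Kmo), -0.12 (Hpd), -0.10 (Fah), -0.042 (Dmgdh) and -0.10 (Agxt). On log2(FPKM + 1), the log2 fold changes were -0.064 (Tdo2), -0.070 (Hpd), -0.048 (Fah) and -0.052 (Agxt). On log2(FPKM + 0.1), the log2 fold changes were -0.065 (Tdo2), -0.070 (Hpd), -0.048 (Fah) and -0.052 (Agxt). Without wild type replicates 1 and 3, the log2 fold changes were 0.064 (Kynu), 0.12 (Hgd), 0.046 (Ahcyl1), 0.30 (Cth), 0.032 (Got2) and 0.079 (Bhmt2). Without replicate 3 of both groups, added after seeing the data, the log2 fold changes were 0.0065 (Hgd), -0.032 (Fah) and -0.11 (Bhmt). Leaving out 1 library at a time gave ranges of -0.084 to 0.11 (Agxt), -0.054 to 0.049 (Ahcyl1), -0.11 to 0.58 (Bhmt), -0.089 to 0.012 (Bhmt2), -0.26 to 0.21 (Cth), -0.021 to 0.089 (Fah), -0.089 to 0.059 (Hgd), -0.089 to 0.11 (Hpd), -0.46 to 0.032 (Kynu), -0.062 to 0.030 (Qprt), -0.069 to 0.96 (Tat) and -0.093 to 0.17 (Tdo2). The cause of these turns was not tested.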

Other observations

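Across the 8827 genes with a mean of at least 5 CPM, replicate 3 was at least 1.5-fold above both other libraries in each group for 29 genes, replicate 1 for 27 and replicate 2 for 5. Of the genes in the lists used here, these included Tat, Dusp1, G6pc and Tsc22d3 for replicate 3 and Hal, the histidine ammonia-lyase gene, for replicate 1. The reverse, at least 1.5-fold below both others in each group, was found for 26, 31 and 3 genes with replicates 3, 1 and 2, among them Klf9 for replicate 3 and Nmrk1, a nicotinamide riboside kinase gene, for replicate 1. The labels do not say whether same-numbered animals shared a litter, a cage or a time of sampling.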
